A study of Mus musculus with 4 samples.

Results

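The strong m6A peaks that persisted in liver after hepatocyte deletion of Mettl3 were the 586 of 12815 distinct peaks (4.57%) at which immunoprecipitated RNA (IP) was at least 4-fold over RNA before precipitation (input) in both genotypes, with at least 20 input reads in each. The peaks were chosen by the enrichments and input reads of both genotypes, so those values are given as a description with no test. Libraries came from livers of chow-fed C57BL/6 mice, 8 weeks old, that carried the Mettl3 flox/flox alleles (flox) or the same alleles with Alb-Cre (HKO). The albumin promoter drives Cre in hepatocytes, so both groups share the floxed alleles, and the design deletes Mettl3 in hepatocytes and not in the other cells of the organ. RNA of several mice was pooled for each of the 4 libraries, 1 per genotype and fraction. No difference between genotypes therefore has a replicate check, and counting intervals leave out variation between animals and libraries.

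METTL3 is the catalytic subunit of the nuclear complex that methylates adenosine at N6 in most mRNAs, often in the motif GGACT and close to stop codons or in 3′ UTRs. Antibodies to m6A also bind m6Am, a cap-adjacent nucleotide made by PCIF1, and METTL16 is another m6A methyltransferase, known in human cells for the mRNA of MAT2A. Besides hepatocytes, liver holds sinusoidal endothelial cells that line its capillaries, Kupffer cells that are its resident macrophages, and stellate cells that store vitamin A and make matrix. The comparison asks in which genes, and in genes of which of these cells, strong enrichment was still present in HKO liver.

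Sequences under persisting peaks are shown first. GGACT lay within 50 nt of the summit in 64 of the 252 persisting peaks of last exons (25.4%, exact 95% interval 20.1 to 31.2), beside 25.7% of all last exon peaks. Where several summits were listed for a peak, these shares used only the first that lay on the transcript. The sites below, in genes typical of endothelial, stellate and immune cells, were picked for lying that close, and in others, such as Pdgfra and Kcnj8, the site lay further away. Each is given 5′ to 3′ on the strand of the transcript, from GENCODE M21 transcripts (GRCm38), with GGACT in capitals.
Bmp2, coding sequence, plus strand, chr2:133561423-133561447: ctttgtatgtGGACTtcagtgatgt
Wnt2, 3′ UTR, minus strand, chr6:17989762-17989786: cttccctcaaGGACTccaattacat
Cdh5, coding sequence, plus strand, chr8:104142722-104142746: cctggcgcctGGACTgcacggaggg
Arhgef15, 3′ UTR, minus strand, chr11:68943324-68943348: taaatcttcaGGACTgtgcaatact
Hand2, 3′ UTR, plus strand, chr8:57323900-57323924: tgcagacccaGGACTccccgaaagc
Pth1r, 3′ UTR, minus strand, chr9:110722222-110722246: tcaaggggctGGACTgctggcatgg
Gimap8, coding sequence, plus strand, chr6:48658855-48658879: agaggacactGGACTggcaggatgt

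For comparison, 2 sites are shown from strong flox peaks in hepatocyte genes that did not persist. They too were picked for lying within 50 nt of the summit, and at another peak of Inhbe the site lay further away.
Nr0b2, 3′ UTR, plus strand, chr4:133556322-133556346: cccctagctcGGACTtccttgcttt
Inhbe, coding sequence, minus strand, chr10:127350589-127350613: gccaggaggaGGACTcccacctgtg

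Persisting peaks in internal exons often lay over purine-rich coding sequence. The most purine-rich 30 nt under some of them are shown with GAAGA, a motif of purines only, in capitals. Only stretches that hold GAAGA are shown. Others held none, such as further stretches of Ccar1 and Eif5b, and that of Lrat, which had 22 purines in 30 nt.
Nop58, plus strand, chr1:59710565-59710594: aaaGAAGAaaaaGAAGAaggataaaaagaa
Kdm5a, plus strand, chr6:120432026-120432055: aaaGAAGAagagcgaaagaaaaagaaagaa
Ccar1, minus strand, chr10:62753253-62753282: gagaaaagataaaaaaGAAGAaagaGAAGA
Ccar1, minus strand, chr10:62760160-62760189: aaaataGAAGAacaaaaaGAAGAgcagaag
Eif5b, plus strand, chr1:38036045-38036074: gGAAGAaGAAGAggaggagGAAGAagagag
Eif5b, plus strand, chr1:38018908-38018937: aaaaGAAGAagggacaaaaaggcaagaaaa
Of these stretches, that of Eif5b at chr1:38036045-38036074 held purines at all 30 positions.

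Library totals ran from 14972301 to 18365473 reads. Because no peak lay in Mettl3 itself, the deletion had no check in these data. All listed peaks had an enrichment above 1 in each genotype. Among all peaks, 30% reached 4-fold in flox and 16.8% in HKO. Of 10931 peaks with at least 20 input reads in both, 2679 were strong in flox. Of these, 586 persisted (21.9%, exact 95% interval over peaks 20.3 to 23.5) and 2093 did not, of which 1055 fell under 2-fold in HKO.

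The persisting peaks had a median enrichment of 5.42-fold in flox and of 5.79-fold in HKO. Their median log2 HKO/flox change was 0.13 (order-statistic 95% interval 0.09 to 0.18), with 11 at least 2-fold lower and 7 at least 2-fold higher, where 24.3% and 6.25% of all peaks were. These counts follow from the rule. The median change depends on the rule too, and its interval is over the chosen peaks and not over animals or libraries. In 564 persisting peaks the deposited table marked a call in both genotypes, in 7 in flox alone and in 15 in HKO alone. The peaks held a median of 310 flox IP, 42.5 flox input, 360.5 HKO IP and 63.5 HKO input reads. At this depth the fold was imprecise, and at 205 of the 586 peaks the lower bounds of both 95% counting intervals were at least 4. These intervals cover counting error only, and PCR copies would make them too narrow. Just inside the rule were Ano6, with 4.0-fold in flox and 5.26-fold in HKO, Rab13 with 5.25-fold and 4.0-fold, and Ppm1g with 4.0-fold and 7.04-fold. Just outside it were Actn1 (3.99-fold in flox and 4.25-fold in HKO), Zranb2 (3.99-fold and 5.83-fold) and Pabpn1 (3.99-fold and 4.82-fold).

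**Figure D1:**
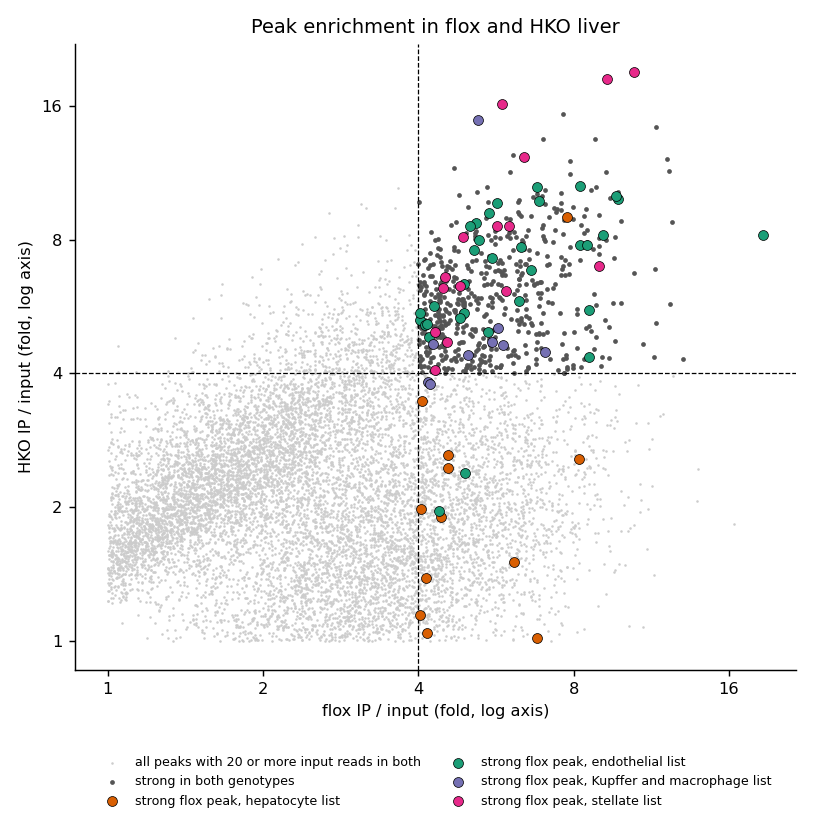
Enrichment of IP over input in flox (horizontal) and HKO (vertical), both as fold on log axes, for the 10931 peaks with at least 20 input reads in both genotypes, with strong flox peaks of 4 cell type lists coloured and dashed lines at 4-fold. Of 57 strong flox peaks in endothelial, Kupffer or stellate genes, 53 lay above the horizontal line, and of 12 in hepatocyte genes, 1 did.

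Of the 12 genes with the highest mean log2 enrichment over both genotypes, predicted genes left out, 5 were on a cell type list (Hand2, Pdgfra, Sema6a, Mmrn2 and Bmp2), as were 49 of all 559 genes with a persisting peak. Hand2, which encodes a transcription factor of stellate cells, had the highest mean, at a 5′ UTR peak (chr8:57321005-57321735). The peak held 535 flox IP, 42 flox input, 624 HKO IP and 34 HKO input reads. Both IP libraries were far above both inputs, which gave 10.5-fold in flox and 19.0-fold in HKO. The 3′ UTR peak of Pdgfra (chr5:75195070-75195669), the receptor for platelet-derived growth factor on stellate cells and fibroblasts, held 253, 22, 361 and 20 reads in the same order. This gave 9.30-fold in flox and 18.4-fold in HKO, from inputs close to the minimum. Sema6a, which encodes a transmembrane semaphorin, had the highest flox enrichment of all persisting peaks, 18.6-fold, and 8.21-fold in HKO. It held 464 flox IP, 20 flox input, 315 HKO IP and 40 HKO input reads, so its flox fold rested on an input at the minimum.

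The next of these genes were Kcnj8, a potassium channel subunit of vascular mural cells, with 11.6-fold in flox and 14.4-fold in HKO, then Rgs1, a regulator of G protein signalling in leukocytes, with 12.3-fold and 11.4-fold. Il10ra, the ligand-binding subunit of the interleukin-10 receptor, had 7.64-fold in flox and 15.3-fold in HKO. Vsir, an immune checkpoint receptor, had 9.75-fold and 10.3-fold. Mmrn2, an extracellular matrix protein of endothelium, had 9.68-fold and 10.03-fold. The transcription factor gene Hivep2 had 12.4-fold and 8.76-fold, and Wdr45, an autophagy gene, 7.87-fold and 12-fold at its transcript start. Nop58, which encodes a core protein of box C/D small nucleolar ribonucleoproteins, had 9.26-fold and 11.3-fold at an internal exon.

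Bmp2, a ligand made by liver endothelium that raises hepcidin in hepatocytes, had the most flox IP reads of these 12 genes. The peak, in the coding part of the last exon (chr2:133560940-133561863), held 2328 flox IP, 200 flox input, 1606 HKO IP and 172 HKO input reads. The genotypes were nearly equal, at 9.76-fold and 9.90-fold, and the log2 HKO/flox change was 0.02 (95% counting interval -0.29 to 0.33). A second persisting peak in its 5′ UTR had 4.03-fold in flox and 5.27-fold in HKO.

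**Figure D2:**
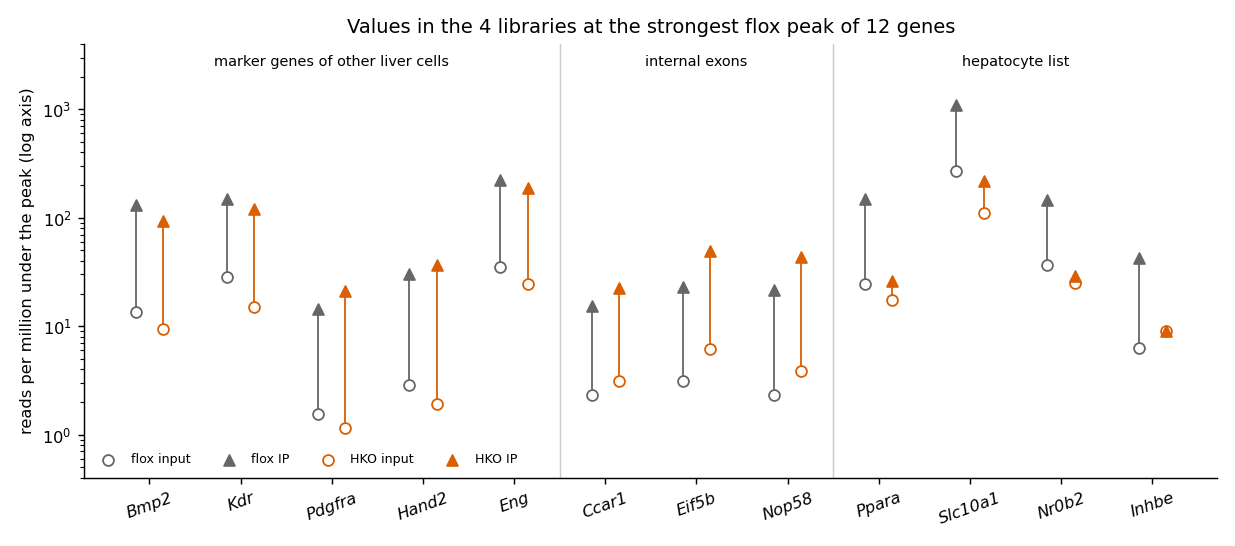
RPM under the strongest flox peak of 12 genes in each of the 4 libraries, on a log axis, with circles for input, triangles for IP, grey for flox and orange for HKO. In the 5 marker genes of other liver cells and the 3 genes with internal exon peaks the IP stood far above input in both genotypes. In the 4 hepatocyte genes the HKO pair lay close together, from 1.98-fold at Slc10a1 to 1.01-fold at Inhbe. The 12 genes are a choice, so the contrast depends on it. Of 9 hepatocyte genes with a strong flox peak, 6 had one under 2-fold in HKO, and Tat, which held a persisting peak, is not shown. Nor are S1pr1, Tek, Clec4f and Mpeg1, marker genes of other cells that held none.

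Genes typical of endothelial, Kupffer and stellate cells held persisting peaks more often than genes typical of hepatocytes did. Of 50 genes of these 3 lists with a strong flox peak, 46 held a persisting peak (92.0%, exact 95% interval 80.8 to 97.8), beside 559 of all 2402 genes with a strong flox peak (23.3%). Those 559 genes were 8.09% of the 6907 genes with a peak of at least 20 input reads in both. Of 9 such hepatocyte genes, 1 did (11.1%, 0.281 to 48.2). With both folds set at 3, the hepatocyte share lay above that of all genes, at 6 of 15 (40.0%) beside 34.9%, and that of the other 3 lists was 95.3%. The lists were written with earlier results of these data known, 1 library per genotype allows no test, and the shares are a description. In bulk liver, fewer cells of a type and less RNA per cell cannot be told apart.

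The endothelial list had 63 genes, of which 44 held a peak with at least 20 input reads in both genotypes and 29 a strong flox peak. Of these, 27 held a persisting peak. They included Kdr and Flt4, receptors for vascular endothelial growth factors, Cdh5, the cadherin of endothelial junctions, Eng, a coreceptor for BMP ligands, and Fcgr2b, an Fc receptor of sinusoidal endothelium. They also included the transcription factors Erg, Sox17, Sox18 and Klf2, and the signals Wnt2 and Dll4. The 3′ UTR peak of Kdr held 2633 flox IP, 421 flox input, 2083 HKO IP and 277 HKO input reads, which gave 5.25-fold in flox and 7.99-fold in HKO. At Eng the reads were 3969, 527, 3258 and 450, with 6.33-fold and 7.70-fold. At both genes the IP libraries lay far above the inputs in either genotype. Klf2, which responds to shear stress, had 9.13-fold and 8.21-fold. Calcrl, a receptor for calcitonin-like peptides, had 6.81-fold and 10.5-fold, and Arhgef15, a guanine nucleotide exchange factor of endothelium, had 8.24-fold and 10.6-fold. The exceptions were S1pr1, a receptor for sphingosine 1-phosphate, with 4.38-fold in flox but 1.957-fold in HKO, and Tek, the angiopoietin receptor, with 4.93-fold and 2.39-fold. Over the 33 strong flox peaks of the list the median log2 change was 0.28. The summed input under all peaks of the list was 871 RPM in flox and 857 RPM in HKO. Over its peaks with at least 20 input reads in both, however, the median log2 input change was -0.49. In the list 15 genes, among them Stab1, Stab2 and Vwf, held no peak.

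The stellate list had 46 genes, 25 with a peak of sufficient input and 12 with a strong flox peak. All 12 held a persisting peak, and all 15 of their strong flox peaks persisted. Lrat, which esterifies retinol for storage, had 8.98-fold in flox and 6.97-fold in HKO at an internal exon and 5.93-fold and 6.13-fold in the 3′ UTR. Pdgfrb, the receptor for platelet-derived growth factor B, had 6.402-fold in flox and 12.3-fold in HKO. Itga8, an integrin subunit, held 268 flox IP, 38 flox input, 332 HKO IP and 21 HKO input reads, with 5.81-fold in flox and 16.1-fold in HKO. Its higher HKO fold came with a lower HKO input. Gdf2, which encodes the circulating ligand BMP9, had the deepest peak, with 3142, 441, 3842 and 476 reads and enrichments of 5.99-fold and 8.59-fold. The collagen genes Col1a2 (4.81-fold and 6.28-fold) and Col5a1 (4.51-fold and 6.60-fold) held persisting peaks at their stop codons. The summed input under all peaks of the list was 504 RPM in flox and 505 RPM in HKO. No peak lay in 15 of its genes.

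The Kupffer and macrophage list had 51 genes, 35 with a peak of sufficient input and 9 with a strong flox peak, of which 7 held a persisting peak. Fcgr1, a high-affinity Fc receptor, had 5.21-fold in flox and 14.9-fold in HKO from inputs of 30 and 34 reads. Mertk, which takes up dying cells, had 5.85-fold and 4.63-fold, and Sirpa, the receptor for CD47, had 7.04-fold and 4.48-fold. Cd14, a coreceptor for lipopolysaccharide, had 4.99-fold and 4.41-fold. At the transcript starts of Lyz2 (lysozyme) and C1qa (complement) the values were 5.56-fold and 4.70-fold, and 4.28-fold and 4.66-fold. The remaining 2, Clec4f, a lectin of Kupffer cells, and Mpeg1, a perforin-like protein, missed the rule narrowly, with 3.82-fold and 3.79-fold in HKO. With both folds set at 5, only 2 of 5 genes of the list held a persisting peak (40.0%), and with both lower bounds at 4 or more 2 of 5 did as well. The summed input under all peaks of this list was 922 RPM in flox and 1286 RPM in HKO. Adgre1, Ccr2 and Cx3cr1 were among its 11 genes with no peak.

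The hepatocyte list had 100 genes. Although 78 held a peak with sufficient input, only 9 had a strong flox peak (11.5%, where 34.8% of all genes with such a peak did). The summed input under all peaks of the list was 31146 RPM in flox and 26557 RPM in HKO and was the highest of the cell type lists. The genes whose strong flox peaks did not persist were Cyp7a1, the rate-limiting enzyme of bile acid synthesis, the growth hormone receptor gene Ghr, the activin gene Inhbe, the nuclear receptors Nr0b2, Nr1i2 and Ppara, the transcription factor Onecut2, and Slc10a1, which takes up bile acids. The stop codon peak of Ppara held 2667 flox IP, 365 flox input, 450 HKO IP and 318 HKO input reads, with 6.14-fold in flox and 1.51-fold in HKO. That of Slc10a1 held 19348, 4023, 3740 and 2008 reads, with 4.05-fold and 1.98-fold. In both genes IP was lower by more than input was. The strongest HKO value among these 8 genes was 3.47-fold, at the 3′ UTR peak of Cyp7a1. Over the 12 strong flox peaks of the list the median log2 change was -1.40.

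The single gene of the hepatocyte list with a persisting peak was Tat, which encodes tyrosine aminotransferase. Its peak lay in an intron (chr8:109993382-109993575) and held 1367 flox IP, 147 flox input, 1266 HKO IP and 149 HKO input reads. The libraries of the 2 genotypes were alike, with 7.78-fold in flox and 9.002-fold in HKO. At 193 nt it was the narrowest persisting peak, where the median width was 457 nt. Which RNA its reads came from was not tested.

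Other cell lists gave few peaks. Of the lymphocyte genes, Gimap6 (5.14-fold and 8.14-fold) and Gimap8 (10.5-fold and 6.72-fold), both GTPases of lymphocytes, held persisting peaks. Gimap9 did not, with 13.9-fold in flox but 2.07-fold in HKO, and its input rose by 2.22 on the log2 scale. Cholangiocyte genes held no persisting peak. Neutrophil and mesothelial genes held no peak, and erythroid genes no strong one.

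**Figure D3:**
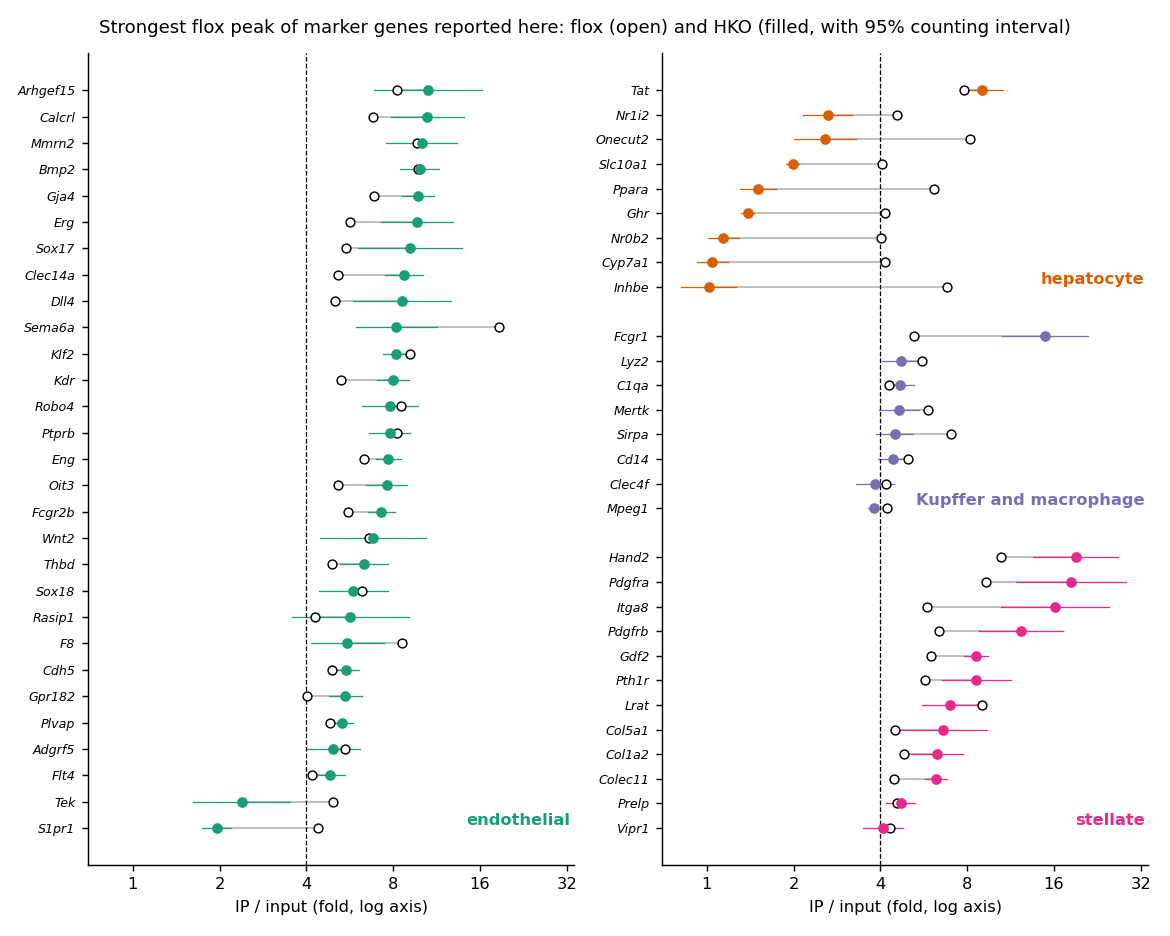
Enrichment (fold, log axis) at the strongest flox peak of each marker gene reported here that had a strong flox peak, open circles for flox and filled circles for HKO with the 95% counting interval, and a dashed line at 4-fold. In the endothelial list S1pr1 and Tek alone lay below the line in HKO, and in the hepatocyte list Tat alone lay above it.

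The place of the persisting peaks on the transcript differed from that of strong flox peaks that did not persist. Within 200 nt of the transcript start lay 78 of the 586 (13.3%, exact 95% interval 10.7 to 16.3), beside 1.10% of those that did not persist and 15.3% of all peaks. Of 101 strong flox peaks at starts, 78 persisted (77.2%, 67.8 to 85.0), where 21.9% of all strong flox peaks did. Within 200 nt of the stop codon lay 114 (19.5%) and further into the 3′ UTR 77 (13.1%), while 199 (33.96%) lay in coding sequence and 12 in the 5′ UTR. By exon, 252 of the persisting peaks lay in the last exon and 150 in other exons beyond the start, referred to as internal. The last exon held 43.0% of the persisting peaks and 71.6% of those that did not persist. Of 1750 strong flox peaks in last exons, 252 persisted (14.4%, 12.8 to 16.1), and of 499 in internal exons, 150 did (30.1%, 26.1 to 34.3). The others lay in noncoding transcripts (40), in introns (17) and over no annotated gene (49).

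**Figure D4:**
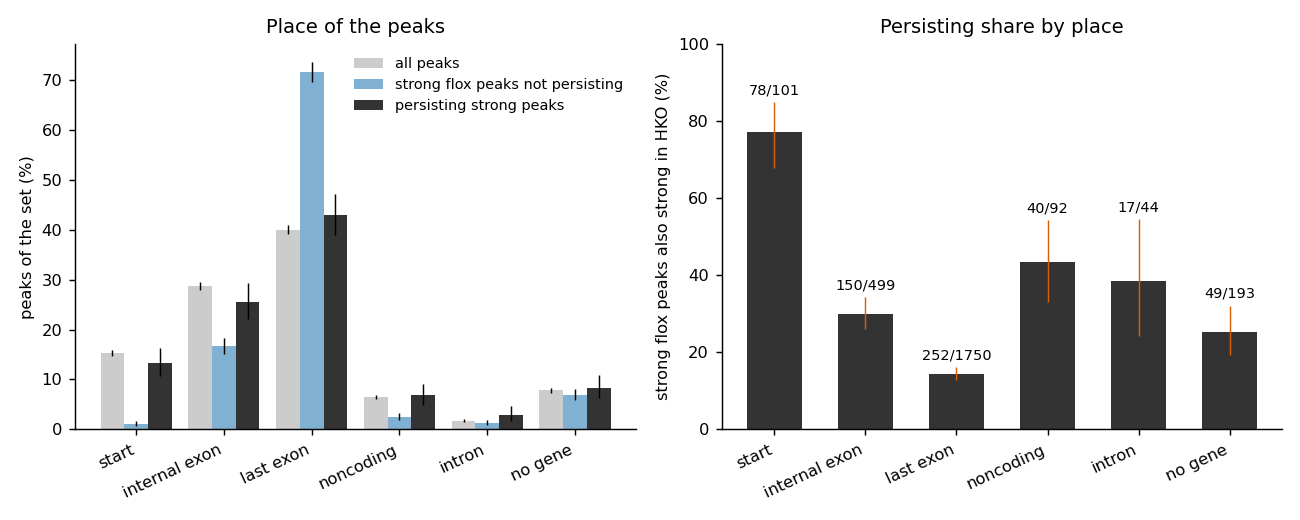
Left, the share of peaks in each place (%) for all peaks, strong flox peaks that did not persist and persisting strong peaks. Right, the share of strong flox peaks in each place that persisted (%), with counts, from 14.4% in last exons to 77.2% at transcript starts. Bars are shares over peaks and lines are exact 95% intervals.

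The difference between cell type lists was also present within the last exon. There 40 of 43 strong flox peaks of endothelial, Kupffer or stellate genes persisted (93.0%, exact 95% interval 80.9 to 98.5), and 212 of 1707 peaks of other genes did (12.4%, 10.9 to 14.1). None of 10 hepatocyte peaks there persisted (upper bound 30.8%). In internal exons all 10 strong flox peaks of the 3 lists persisted, and 140 of 489 of other genes (28.6%, 24.7 to 32.9). The marker peaks were thus 40 of the 252 persisting peaks in last exons, and most persisting peaks lay in genes on none of these lists.

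The motif GGACT, searched on the transcript strand in 200 nt about the peak middle, was present in 89 of the 252 last exon peaks (35.3%, 29.4 to 41.6). It was in 38.2% of last exon peaks that did not persist and in 34.3% of all last exon peaks. Within 50 nt of the summit it was in 31.0% of last exon peaks that did not persist (28.7 to 33.4). In internal exons it was in 36 of 150 persisting peaks (24%, 17.4 to 31.6), in 42.1% of those that did not persist (36.9 to 47.5) and in 23.9% of all. In internal exons persisting peaks thus carried GGACT at about the share of all peaks there, below the share of those that did not persist.

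Base composition differed as well. The median share of purines in the 200 nt was 67.5% in persisting internal exon peaks, 54.0% in those that did not persist and 58.5% in all internal exon peaks. At least 65% purines were found in 92 of the 150 (61.3%, 53.0 to 69.2), in 27 of 349 that did not persist (7.74%, 5.16 to 11.1) and in 21.1% of all. The longest run of purines had a median of 14.5 nt in persisting peaks and 9 nt in those that did not persist. GAAGA was in 68.0% of the persisting ones (59.9 to 75.4), in 43.3% of those that did not persist and in 57.6% of all. Within 50 nt of the summit, GAAGA was found in 55.0% of persisting internal exon peaks and GGACT in 20.1%, against 24.6% and 31.5% where peaks did not persist and 39.3% and 16.3% of all internal exon peaks. Purine-rich peaks were also more frequent among persisting ones in other places. In last exons the median share of purines was 53.0% in persisting peaks and 52.0% in the others, but at least 65% purines were found in 30 of the 252 (11.9%, 8.18 to 16.6), in 2.20% of those that did not persist (1.52 to 3.08) and in 4.39% of all. In noncoding transcripts 20 of 40 persisting peaks reached 65% (33.8 to 66.2) and 3 of 52 that did not persist did (1.21 to 15.9), beside 16.5% of all. At transcript starts 16 of 78 did (20.5%, 12.2 to 31.2) and 1 of 23 that did not persist (0.110 to 21.9), beside 4.12% of all. The intervals at starts overlapped. Of the strong HKO peaks that were not strong in flox, 243 lay in internal exons, and 59.3% of these held at least 65% purines. GAAGA and the purine share were examined after sequences of these peaks had been seen, and how they depend on the settings was not tested.

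**Figure D5:**
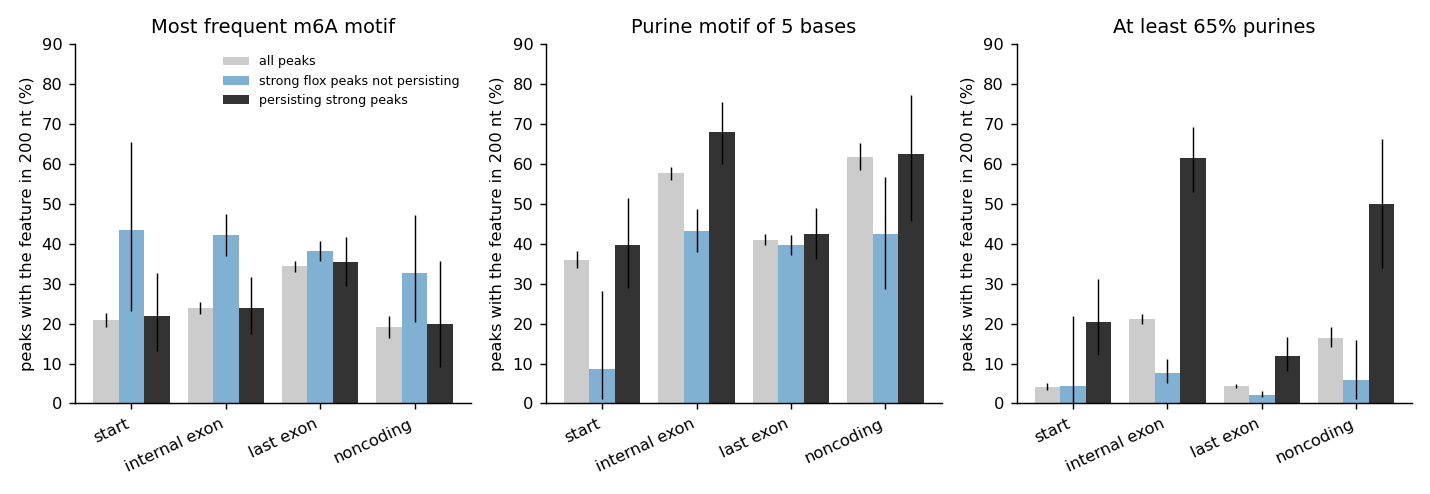
Share of peaks (%) with GGACT (left), with GAAGA (middle) and with at least 65% purines (right) in 200 nt about the peak middle, by place, for all peaks (grey), strong flox peaks that did not persist (blue) and persisting strong peaks (black), with exact 95% intervals. At least 65% purines were found in 61.3% of persisting internal exon peaks and in 7.74% of those that did not persist.

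Several genes held more than 1 persisting peak of this kind. Ccar1, a coactivator of transcription and apoptosis, held 4 in its internal exons, with flox enrichments from 4.88-fold to 6.57-fold and HKO enrichments from 5.69-fold to 9.70-fold. The strongest of them in HKO held 258 flox IP, 34 flox input, 354 HKO IP and 38 HKO input reads. Eif5b, a factor that joins ribosomal subunits at initiation, held 3, and its deepest one had 550, 112, 1132 and 232 reads with 4.11-fold in flox and 5.18-fold in HKO. Anp32b, an acidic histone chaperone, had 9.62-fold and 8.13-fold, but a pseudogene copy, Anp32b-ps1, held a persisting peak as well and reads may be split between them. Dse, an epimerase of dermatan sulfate, held 3 in its last exon instead, from 4.53-fold to 5.81-fold in flox and 6.46-fold to 6.80-fold in HKO. Mmrn2 and Hand2 also held 3 each.

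With each peak counted once, on the gene it was placed on, 486 genes held a persisting peak, and in 48 of them another strong flox peak did not persist. In these 48 genes, 23 persisting peaks lay in internal exons and 16 in last exons, and of those that did not persist 14 and 34 did. Ncor1, a corepressor of nuclear receptors, kept 6.61-fold in flox and 9.04-fold in HKO at an internal exon, and its stop codon peak went from 4.68-fold to 2.39-fold. At the splicing factor gene Luc7l3, both internal exon peaks persisted (6.34-fold and 6.72-fold at the stronger), and both 3′ UTR peaks did not (5.18-fold and 1.83-fold at the stronger). Kdm5a, a histone demethylase, had 9.58-fold and 7.26-fold at its internal exon and 4.05-fold and 1.56-fold at the stop codon.

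At transcript starts the highest enrichments were in Wdr45, Crebl2, a leucine zipper protein gene, and Oaz2, an inhibitor of ornithine decarboxylase. Crebl2 held 198 flox IP, 20 flox input, 186 HKO IP and 20 HKO input reads, with 7.98-fold in flox and 9.49-fold in HKO. Oaz2 held 394, 48, 361 and 37 reads, with 6.79-fold and 10.2-fold. Both genotypes were alike in reads at these starts. GGACT was in 21.8% of the 78 persisting start peaks (13.2 to 32.6) and in 20.8% of all start peaks. The antibody does not separate m6Am from m6A at such places.

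Among noncoding transcripts, the deepest persisting peak was placed on Malat1, and it overlapped a predicted gene on the other strand. It held 19971 flox IP, 3972 flox input, 16242 HKO IP and 3995 HKO input reads. The genotypes were nearly equal here, at 4.23-fold and 4.33-fold, and the log2 HKO/flox change was 0.03 (95% counting interval -0.04 to 0.10). MALAT1 is bound by METTL16 in human cells. Mat2a did not meet the rule, since its strongest peak had 1.72-fold in flox and 3.85-fold in HKO. The imprinted RNA Peg13 (8.66-fold and 10.4-fold) and an isoform of Tpr without a reading frame (7.02-fold and 8.03-fold) also had folds close to each other in both genotypes. H2-Q4 (8.37-fold and 9.03-fold) belongs to a family of near-identical genes, so its reads are uncertain. In introns, the peak in Tg (6.10-fold and 12.4-fold) had Sla, an adaptor gene of blood cells, as its closest transcript start. Abcc2, a canalicular exporter of hepatocytes, had 7.03-fold and 9.62-fold in an intron. Peaks over no gene were led by those whose closest starts were Ndufa6 (7.86-fold and 11.2-fold), Prkce (12.3-fold and 5.73-fold) and Meis2 (8.72-fold and 7.63-fold). In all, 29 persisting peaks overlapped exons of genes on both strands, among them those named here of Malat1, Hivep2, Smarca2, Ano6 and Deptor, and their reads cannot be told apart because the sources used here do not say whether the libraries kept strand.

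The lists of signalling and regulatory genes held persisting peaks at differing shares. Of 27 BMP, TGF-beta, Wnt and Notch genes with a strong flox peak, 6 held a persisting one (22.2%), beside 23.3% of all genes. By the closest transcript start it was 6 of 14 (42.9%), beside 22.8% of all. They were the ligands Bmp2, Gdf2, Wnt2, Dll4 and Inhbb and the inhibitor Smad6. Inhbb had 8.38-fold in flox and 8.30-fold in HKO, Smad6 had 6.47-fold and 6.37-fold, Wnt2 had 6.60-fold and 6.82-fold, and Dll4 had 5.03-fold and 8.60-fold. Bmp2, Wnt2 and Dll4 are also on the endothelial list and Gdf2 is on the stellate list. Of 30 immediate-early and stress genes, 3 did (10%), namely Klf2, Klf4, a transcription factor with 7.64-fold and 8.26-fold, and Socs3, an inhibitor of cytokine signalling with 4.84-fold and 4.71-fold. Jun, Egr1, Atf3 and Myc were among the 27 that did not.

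Of 24 nuclear receptor and coregulator genes, 3 held a persisting peak (12.5%, beside 23.3% of all genes), all in internal exons. Besides Ncor1 they were Med12, a subunit of Mediator (4.68-fold and 4.33-fold), and Nr2f2, an orphan receptor (4.62-fold and 4.29-fold). Of 46 chromatin genes, 9 did (19.6%), and with both folds set at 3 it was 28 of 58 (48.3%), beside 34.9% of all genes. They included Chd3, a remodelling ATPase (7.58-fold and 7.32-fold), the demethylase gene Jmjd1c (5.33-fold and 5.05-fold), and the SWI/SNF subunits Smarcc2 (4.39-fold and 5.85-fold) and Smarca2 (4.0-fold and 6.32-fold). Purines made up 79.5% of the 200 nt at Chd3, 76.5% at Smarcc2 and 73.0% at Smarca2. Of the 11 persisting peaks of the chromatin list, 2 lay in last exons, where 36 of its 68 strong flox peaks lay. One of these was in Kat6b, an acetyltransferase gene (4.61-fold and 5.29-fold). Another last exon peak of Kat6b did not persist, with 7.32-fold in flox and 3.99-fold in HKO.

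None of 9 genes of the m6A machinery with a strong flox peak held a persisting one (exact 95% upper bound 33.6%), and none of 7 clock genes did (41.0%). These counts of 0 depended on the rule. With both folds set at 3, 4 of 11 m6A genes (36.4%, beside 34.9% of all genes) and 1 of 11 clock genes held a persisting peak, and with 10 input reads 2 of 10 m6A genes did. The m6A machinery genes without one included Wtap, which encodes a subunit of the writer complex, and Ythdf2, which encodes a reader that speeds mRNA decay. Of 14 genes of the insulin, PI3K, AKT and mTOR pathway with a strong flox peak, 2 held a persisting one (14.3%, beside 23.3% of all genes). Pik3ca, the catalytic subunit of a PI3-kinase, had 9.62-fold in flox and 4.73-fold in HKO. The peak that overlapped Deptor, an inhibitor of mTOR, was placed on the noncoding transcript Gm9920 (4.25-fold and 6.64-fold). All 3 collagen and matrix genes with a strong flox peak held a persisting one, Col1a2, Col5a1 and the protease gene Adamts1 (4.35-fold and 4.86-fold). With 3 genes the exact 95% interval ran from 29.2% to 100%.

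The input change of the persisting peaks lay near that of all peaks. Their median log2 HKO/flox input change was 0.15 (0.07 to 0.22), beside 0.18 over all peaks with sufficient input and 0.42 over strong flox peaks that did not persist. Input was at least 2-fold lower at 22 of them (3.75%) and higher at 52 (8.87%), where the background was 3.58% and 10.2%. Since input is the denominator of enrichment, its own counting error moves both. By list, the median log2 input change over peaks with sufficient input was -0.49 for endothelial, 0.82 for Kupffer and 0.07 for stellate genes. A gene with several such peaks counted several times in these medians. The part of these input differences in the enrichments was not tested.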

How the data were processed

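Per the submitters' processing notes, the tools were FastQC, BWA 0.7.12-r1039, MACS2 2.1.0 and HOMER with the GRCm38 build, while the study's methods name exomePeak as peak caller, so the sources differ. The deposited table of 14395 rows repeats a peak for each gene it overlaps and was reduced to 12815 peaks, merged by the authors over both genotypes. Its read counts per peak are as deposited by the authors, not normalized. RPM values deposited by the authors were the count plus 1 over the library total. Fold enrichment in the deposited table equals IP RPM over input RPM, a ratio recomputed here to within a relative difference of 4.88e-15. A log2 change column deposited by the authors was not used. The sources used here do not say whether peak starts count from 0 or 1.

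Peaks were placed on GENCODE M21 transcripts at the middle of their exonic part (520 of 586 persisting peaks), on a principal isoform where its overlap was at least 90% of the longest one. A gene of a list counted where a peak overlapped it. Intervals of shares are exact (Clopper-Pearson) 95% intervals over peaks or genes, and those of folds are 95% counting intervals from the reads with 1 added. No test was run, since each genotype and fraction had 1 library. The motif GGACT was searched on the transcript strand only, as was the motif GAAGA, and matches could overlap. All shares within 50 nt of the summit used the first listed summit on the transcript. Other summits of the same peak were not used, and how the shares depend on this choice was not tested. TACAGAGAA, a METTL16 motif, was in 3 of 520 persisting peaks and 33 of 11585 placed peaks.

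Named genes were the 12 with the highest mean log2 enrichment, the first 3 of each place, up to 6 of each list, those with 3 or more persisting peaks, the 3 just inside and 3 just outside the rule, and Mat2a and Malat1, with predicted genes left out and 1 peak per gene except those with several. Other genes were named after their values were seen, and some genes that the rule or the lists hold are not reported here. The peaks, the 9 cell type lists and the 9 pathway lists were chosen with earlier results of these data known. The interferon and splicing lists, the division into last and internal exons, the count of genes by placed peak, GAAGA and the purine measures were chosen after the persisting peaks were seen. Alternatives were other folds, input minimums, windows, placings and counts with nothing added. The counting scripts were tested on simulated data. The tools were Python 3.11.15, numpy 2.4.6, pandas 2.3.3, scipy 1.17.1 and matplotlib 3.10.9.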

Additional observations from a re-analysis of the deposited data

How the results depend on the processing

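No paired analysis was possible because each genotype and fraction had 1 library, and for the same reason no replicate could be left out. The number of persisting peaks, 586, was 1448 at 3-fold, 258 at 5-fold, 890 with 10 input reads, 243 with 50 input reads and 205 with both lower bounds at 4 or more, and the share of strong flox peaks that persisted was 32.01%, 17.2%, 26.3%, 15.8% and 14.8%. The share within 200 nt of a stop codon or beyond it in the 3′ UTR, 32.6%, was 38.0% at 5-fold, 36.6% with 50 reads, 38.5% with lower bounds, 28.7% with windows of 100 nt and 42.2% with any overlap. The share at transcript starts, 13.3%, was 16.6% at 3-fold, 9.30% at 5-fold and 9.27% with lower bounds. It was 4.95% with windows of 100 nt and 17.9% with any overlap. GGACT, in 28.8% of the peaks placed on a transcript, was in 15.8% with 100 nt, in 49.8% over the whole exonic part, in 35.3% of last exon peaks and in 24% of internal exon peaks, the last division chosen after seeing the data. The median log2 change, 0.13, was 0.0733 with 10 reads and 0.19 with 50 reads, and that of input, 0.15, was 0.0102 with 50 reads and 0.0359 with lower bounds. The share of endothelial, Kupffer and stellate genes, 92.0%, ran from 87.5% (closest transcript start) to 95.3% (3-fold), but that of Kupffer genes alone, 77.8%, was 40.0% (2 of 5) at 5-fold and with lower bounds. For hepatocyte genes, 11.1%, it was 40.0% at 3-fold (6 of 15), 25% at 5-fold or with lower bounds (1 of 4), 18.2% with 10 reads (2 of 11) and 27.3% by closest start (3 of 11). The share of all genes, 23.3%, was 34.9%, 18.1%, 15.3% with lower bounds, 28.4% and 22.8% in these settings, so that hepatocyte genes lay above it at 3-fold, at 5-fold, with lower bounds and by closest start. Among the pathway lists, that of BMP, TGF-beta, Wnt and Notch genes, 22.2%, lay above it at 3-fold (36.8%), at 5-fold (28.6%), with 10 reads (35.3%), with lower bounds (26.3%) and by closest start (42.9%). That of chromatin genes, 19.6%, was 48.3% at 3-fold, 28.8% with 10 reads, 9.38% at 5-fold, 9.68% with 50 reads and 6.90% with lower bounds. That of nuclear receptors, 12.5%, was 25% at 3-fold (7 of 28), 6.67% at 5-fold and 40.0% by closest start (2 of 5), and the m6A machinery genes, at 0 of 9, had 4 of 11 at 3-fold, 2 of 10 with 10 reads and 1 of 7 by closest start. The cause of these differences was not tested. Without peaks over exons of both strands, an alternative chosen after seeing the data, 557 peaks were left. Depth limits single folds most where inputs lie near 20 reads.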

Other observations

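The interferon and splicing lists described here were written after members with such functions had been seen among the persisting peaks, so their counts support nothing and are given as values. Of 20 interferon response genes with a strong flox peak, 11 held a persisting peak (55.0%, beside 23.3% of all genes). At 5-fold it was 30.8% (18.1% of all genes) and with 50 input reads 27.3% (16.2% of all genes). Ifnar2, a subunit of the type I interferon receptor, had 8.51-fold in flox and 8.43-fold in HKO, Ifit2, an RNA-binding antiviral protein, had 5.82-fold and 5.84-fold, and Slfn2, a Schlafen family member, had 4.69-fold and 7.59-fold. Isg15, a ubiquitin-like antiviral protein, went from 6.50-fold to 2.84-fold, with 578 flox IP, 74 flox input, 957 HKO IP and 359 HKO input reads. Its input thus rose by 1.97 on the log2 scale, and its IP reads were not lower in HKO. Stat2, a signal transducer of the interferon receptor, went from 8.85-fold to 3.12-fold, with 1124, 106, 593 and 202 reads in the same order. Of the 25 strong flox peaks of the list, 14 persisted (56.0%, beside 21.9% of all strong flox peaks). In last exons lay 23 of the 25 and 13 of the 14. The summed input under all peaks of the list was 338 RPM in flox and 603 RPM in HKO.

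Of 29 genes of arginine-serine splicing factors and their partners with a strong flox peak, 21 held a persisting peak (72.4%, beside 23.3% of all genes). At 5-fold it was 47.4% (18.1% of all genes) and with 50 input reads 46.7% (16.2% of all genes). Of their 18 strong flox peaks in internal exons 15 persisted, and of the 17 in last exons 6 did. Over all strong flox peaks the shares were 30.1% in internal exons and 14.4% in last exons. Srek1 had 6.45-fold in flox and 8.14-fold in HKO at an internal exon, over 86.5% purines, and 5.44-fold and 3.03-fold at its stop codon. Rbm25, a regulator of splice site choice, had 5.63-fold and 7.82-fold at an internal exon, over 80.5% purines. Rbm39, a spliceosome-associated protein, had 4.97-fold and 7.001-fold. Son, which organizes nuclear speckles, went from 5.99-fold to 1.47-fold at an internal exon, where its input rose by 1.59 on the log2 scale. Cdk13, a kinase of RNA polymerase II, went from 6.22-fold to 1.61-fold in its last exon, with an input change of 0.26.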
